A study of Homo sapiens with 4 samples.

Results

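Interferon-stimulated genes and sensors of foreign RNA were followed in MDA-MB-231 cells, an established human line from a triple-negative breast cancer, after exposure to RB-1. The set holds 41 genes, taken from a list of interferon-response symbols (RIGI is also written DDX58). All 41 were found by Ensembl ID among the 20263 genes of the deposited count table. Cells were kept for 24 h either with the solvent DMSO or with RB-1, a ribociclib derivative by the title of the series. Ribociclib is an inhibitor of CDK4 and CDK6. Both groups grew in the same serum-containing medium. Each group had 2 libraries, and the dose of RB-1 was not given in the sources used here. Since no label ties the 2 libraries of a group to separate cultures, the p-values speak only of the spread among these samples, and that spread may be technical.

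RIGI and IFIH1 are helicases that bind foreign or misplaced double-stranded RNA in the cytosol and pass the signal to MAVS on mitochondria, which leads to the making of type I and type III interferons. Interferons bind receptors on the cell surface, and the kinases JAK1 and TYK2 then activate STAT proteins, among them STAT2, which joins IRF9 in the complex ISGF3. ISGF3 binds a DNA element called ISRE in the promoters of the interferon-stimulated genes, whose products bind viral RNA, block viral entry or tag proteins.

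The ISRE letters are shown first because most members share them. They were searched as GAAA, any 2 bases and GAAA again, on both strands, in RefSeq windows (GRCh38.p14) from 250 bases before to 50 bases after each annotated start. Windows were matched for 34 of the 41 members, and in 22 of the 34 (64.7%) at least 1 window held a match, against 4.38% of all 27305 genes with windows. The letters were in 8 of 13 members that fell after RB-1 with a window, in 2 of 3 that rose and in 10 of 14 that did not pass the test, so the match did not go with 1 direction. A second element of interferon signalling, GAS, searched as TTCNNNGAA, which reads the same on both strands, was in 10 of the 34 members (29.4%) against 9.38% of all genes. In 5 of 44 member windows a GAS match shared bases with an ISRE match. A match is a description of letters and not a measured binding site. RIGI, OAS1, HERC6, SAMD9L and XAF1 fell without an ISRE match in their windows, and IFIT2, OAS2 and MX2 fell and had no matched window. The lines below give the stretches around a match for some of the other members that fell, for the 2 short genes that rose, and for ISG15, which did not pass. Each is written 5′ to 3′ on the gene's strand with 1 match in capitals (TTTC, any 2 bases and TTTC is the same element on the other strand).

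SAMD9 (chr7:93118081-93118140, minus strand): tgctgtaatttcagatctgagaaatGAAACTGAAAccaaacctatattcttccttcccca
IFIT3 (chr10:89327850-89327909, plus strand): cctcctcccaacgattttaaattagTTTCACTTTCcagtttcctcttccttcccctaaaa
PARP14 (chr3:122680785-122680838, plus strand): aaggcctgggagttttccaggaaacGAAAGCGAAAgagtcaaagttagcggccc
HERC5 (chr4:88457020-88457079, plus strand): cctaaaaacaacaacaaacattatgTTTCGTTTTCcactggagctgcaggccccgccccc
OAS3 (chr12:112938306-112938365, plus strand): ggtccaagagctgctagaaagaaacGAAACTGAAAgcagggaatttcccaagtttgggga
PARP9 (chr3:122564322-122564351, minus strand): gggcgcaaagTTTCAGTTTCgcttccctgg
BST2 (chr19:17405726-17405785, minus strand): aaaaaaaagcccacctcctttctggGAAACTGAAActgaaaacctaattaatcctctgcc
IFI27 (chr14:94110603-94110662, plus strand): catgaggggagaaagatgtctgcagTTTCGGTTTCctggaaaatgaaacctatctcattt
ISG15 (chr1:1013365-1013424, plus strand): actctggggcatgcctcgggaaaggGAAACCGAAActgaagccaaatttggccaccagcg

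The match begins 136 bases before the start of SAMD9, 122 before that of IFIT3 and 130 before that of BST2. PARP9 and its neighbour DTX3L are read in opposite directions from start sites close together, and the PARP9 match shown above is also the match in the DTX3L window. The 10 letters GAAACTGAAA appear in both SAMD9 and OAS3, which fell, and in BST2, which rose.

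The 4 libraries held 34122874 to 37754168 counts, and the members together took 0.151% and 0.144% of the counts in DMSO against 0.118% and 0.131% in RB-1. Replicates differed by far more than counting noise, with a chi-square per degree of freedom of 256.6 in DMSO and 128.0 in RB-1. All 5 markers of the line were present, with a summed level of 6336 to 8069 CPM (counts scaled to a common library size with TMM factors). VIM made up most of that sum, and CAV1 was at 617 and 587 CPM in DMSO and 316 and 332 CPM in RB-1. The 5 genes known to be low in this line summed to 89.1 and 89.5 CPM in DMSO and 63.5 and 61.2 CPM in RB-1, mostly ERBB2. Markers of leukocytes summed to 1.15 and 0.977 CPM in DMSO and 0.981 and 0.160 CPM in RB-1, with CD3E at 0 throughout. The 5 markers of fibroblasts and endothelium summed to 8.94 and 8.97 CPM in DMSO and 6.12 and 6.36 CPM in RB-1, with DCN at 0.

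More members fell than rose after RB-1. Of the 41, 37 passed the filter on low counts; 16 of these fell, 3 rose and 18 did not pass (edgeR's quasi-likelihood test, adjusted p below 0.05). Among all 13612 genes tested, 16.1% were lower, 12.8% higher and 28.8% either. The median log2 fold change of the tested members was -0.79, against 0.01 over all genes tested. The SAMD9 pair, IFIT3, RIGI, PARP14 and OAS1 were among those that fell, and MAVS, BST2 and IFI27 rose. Both RB-1 libraries lay below both DMSO libraries in 26 of the 37 (34.3% of all genes tested) and above them in 7 (35.3%). Fewer cells expressing a gene and less RNA per cell cannot be told apart in these bulk samples.

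With library totals in place of TMM factors 4 members were higher and 11 lower, a scaling that moved the median log2 fold change of all genes by 0.20 and their split from 1737 higher and 2189 lower to 2059 and 1400. Leaving out DMSO replicate 2 left 9 members lower and leaving out RB-1 replicate 1 left 10, with 2 and 1 higher, while leaving out RB-1 replicate 2 gave 18 lower and 5 higher. In these 3 fits 9.38%, 7.65% and 17.6% of all genes were lower and 3.76%, 4.70% and 14.1% higher, so the calls over all genes moved too.

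**Figure D1:**
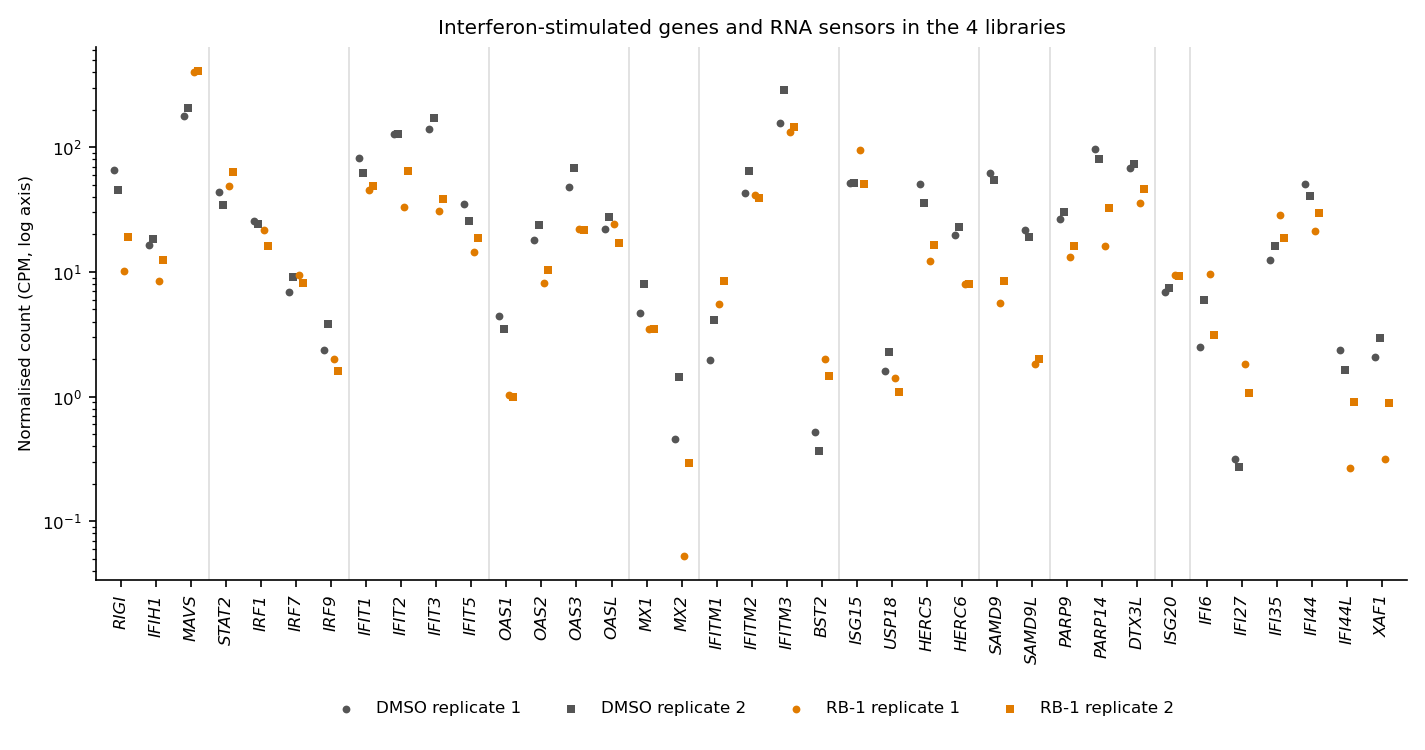
Normalised counts (CPM, log axis) of the 37 tested members in each library, grouped by role, with grey for DMSO, orange for RB-1, circles for replicate 1 and squares for replicate 2. The orange points lie below the grey ones for 26 members, with the widest gaps at SAMD9 and SAMD9L, and above them for 7, among them MAVS, BST2 and IFI27.

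**Figure D2:**
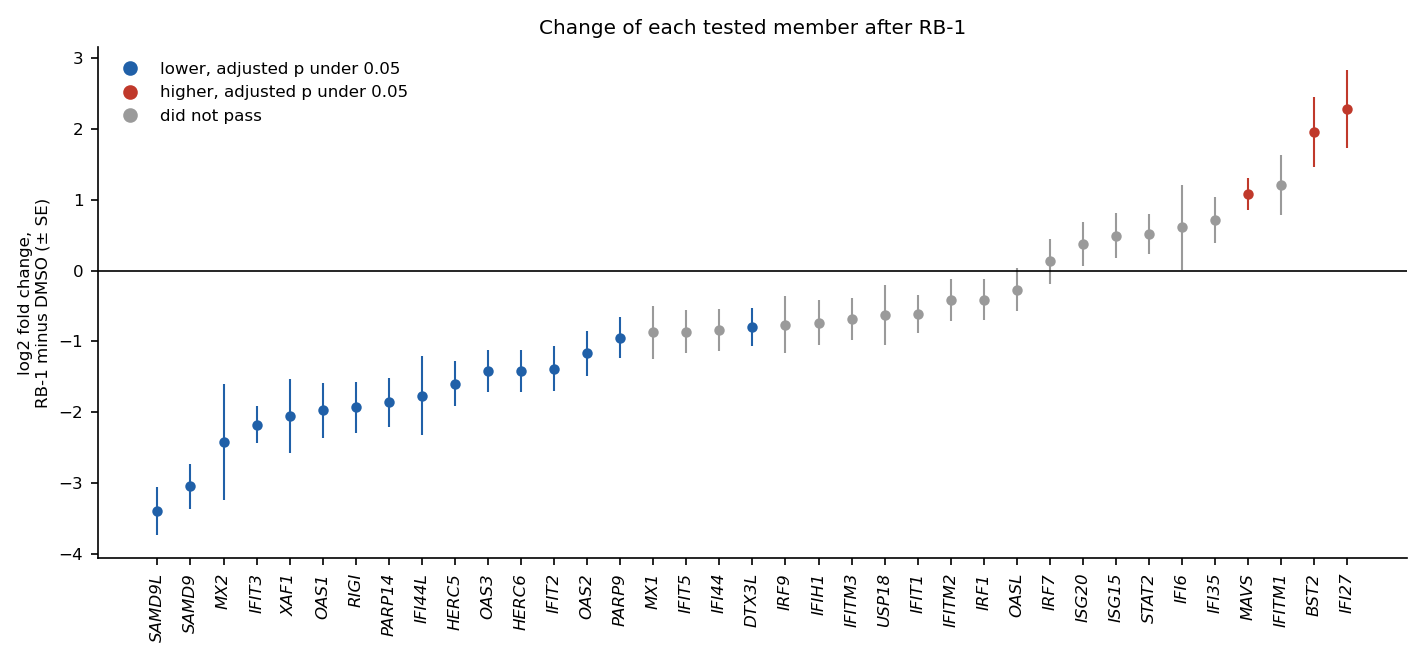
Log2 fold change (RB-1 minus DMSO) of each tested member with its standard error, sorted, in blue where it fell, red where it rose and grey where it did not pass. The values run from -3.40 for SAMD9L to 2.28 for IFI27.

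Of the RNA sensors and their adaptor, RIGI fell, MAVS rose and IFIH1 did not pass. RIGI, the sensor of short double-stranded RNA with a triphosphate end, had 66.0 and 45.0 CPM in DMSO and 10.1 and 18.9 CPM in RB-1. The groups did not overlap, and RIGI was 3.82-fold lower (log2 fold change -1.93 ± 0.36 SE, adjusted p = 0.00463). MAVS, the adaptor on mitochondria, had 179 and 205 CPM in DMSO and 405 and 408 CPM in RB-1. Both RB-1 libraries stood at nearly the same level, and MAVS was 2.11-fold higher (1.08 ± 0.23, adjusted p = 0.00693). IFIH1, the sensor of long double-stranded RNA also called MDA5, had 16.6 and 18.3 CPM in DMSO and 8.40 and 12.5 CPM in RB-1, a change of -0.74 ± 0.32 that did not pass (adjusted p = 0.106). Without RB-1 replicate 2 it did pass (-1.05, adjusted p = 0.0471), and MAVS did not without DMSO replicate 1 (0.98, adjusted p = 0.0510).

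The transcription factors of the pathway gave no call. The changes were 0.52 for STAT2, 0.13 for IRF7, -0.41 for IRF1 and -0.77 for IRF9, each with a standard error of 0.28 to 0.40, and none had an unadjusted p under 0.05. IRF7 was at -0.35 with the length and GC correction. STAT2, a subunit of ISGF3, had 44.0 and 34.5 CPM in DMSO and 49.4 and 62.8 CPM in RB-1. IRF9, the DNA-binding subunit, was at 2.35 and 3.82 CPM in DMSO and 2.01 and 1.60 CPM in RB-1. Of its exon bases 93.5% also belong to another gene model on the same strand, so its counts are uncertain.

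Some proteins of the IFIT family bind viral RNA that lacks the marks of the cell's own messages. IFIT3 had 140 and 171 CPM in DMSO and 30.6 and 38.2 CPM in RB-1. It was 4.52-fold lower (-2.18 ± 0.26, adjusted p = 0.000584), with the smallest p of the family. IFIT2, its neighbour in the RefSeq gene order, had 128 and 127 CPM in DMSO and 33.4 and 64.0 CPM in RB-1, and was 2.61-fold lower (-1.39 ± 0.32, adjusted p = 0.0106). The RB-1 libraries differed from each other about as much at IFIT2 as at RIGI. IFIT1 (-0.61 ± 0.27, adjusted p = 0.108) and IFIT5 (-0.86 ± 0.31, adjusted p = 0.0559) did not pass, although both RB-1 libraries lay below both DMSO libraries for each. IFIT5 passed with DESeq2 (-0.87, adjusted p = 0.0272).

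OAS enzymes make short oligoadenylates that act as a signal in antiviral defence. OAS1 had 4.44 and 3.51 CPM in DMSO and 1.03 and 0.988 CPM in RB-1, 3.92-fold lower (-1.97 ± 0.39, adjusted p = 0.00528). OAS3 had 48.1 and 68.2 CPM in DMSO and 21.9 and 21.5 CPM in RB-1, 2.68-fold lower (-1.42 ± 0.29, adjusted p = 0.00646). OAS2 had 18.0 and 23.7 CPM in DMSO and 8.14 and 10.4 CPM in RB-1, 2.25-fold lower (-1.17 ± 0.31, adjusted p = 0.0199). These 3 genes stand next to each other in the RefSeq order, and none of them overlapped between the groups. OASL, a relative that makes no oligoadenylates, had 22.0 and 27.8 CPM in DMSO against 24.1 and 17.2 CPM in RB-1, and its groups overlapped (-0.27 ± 0.31, adjusted p = 0.532). The OAS2 call was lost when DMSO replicate 1 (-1.36, adjusted p = 0.0509), DMSO replicate 2 (-0.93, adjusted p = 0.181) or RB-1 replicate 1 (-1.0, adjusted p = 0.0909) was left out, and with library totals alone (-0.96, adjusted p = 0.0611); for OAS3 it was lost when DMSO replicate 2 was left out (-1.12, adjusted p = 0.0882).

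The dynamin-like GTPases MX1 and MX2, which trap viral particles inside the cell, were weakly expressed. MX2 had 16 and 47 counts in DMSO and 2 and 11 counts in RB-1, a fitted change of -2.42 ± 0.82 (adjusted p = 0.0491). Its RB-1 libraries alone would not have passed the filter on low counts. With a filter of at least 50 counts in 2 libraries MX2 was not tested. With so few counts the size rests on single libraries: it was -1.37 (adjusted p = 0.333) with DMSO replicate 2 removed, -1.67 (adjusted p = 0.251) with RB-1 replicate 1 removed, -3.03 with DMSO replicate 1 removed and -4.06 with RB-1 replicate 2 removed. Further settings that lost the call were DESeq2 (adjusted p = 0.0841), limma-voom (0.0644), edgeR's legacy fit (0.0553), upper-quartile factors (0.0645), library totals alone (0.0686), testing without a count filter (0.0690) and the length and GC correction (0.0583). MX1 had 4.67 and 8.06 CPM in DMSO and 3.47 in each RB-1 library (-0.87 ± 0.37, adjusted p = 0.100).

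Of the 4 restriction factors in membranes 1 rose (25%, beside 12.8% of all genes tested) and 3 did not pass. BST2, or tetherin, holds budding virus at the cell surface, and its transcript was scarce, with 18 and 12 counts in DMSO against 75 and 55 counts in RB-1. That is 0.516 and 0.366 CPM against 1.99 and 1.47 CPM, a 3.88-fold rise (1.96 ± 0.49, adjusted p = 0.0149). The IFITM proteins hinder the fusion of viral and cell membranes. IFITM3, the member with the highest count per transcript length, had 158 and 288 CPM in DMSO and 133 and 145 CPM in RB-1 (-0.68 ± 0.29, adjusted p = 0.108). IFITM2 was at -0.42 ± 0.29 (adjusted p = 0.302), and IFITM1, with 1.95 and 4.09 CPM in DMSO and 5.49 and 8.47 CPM in RB-1, at 1.21 ± 0.42 (adjusted p = 0.0539). The 3 IFITM genes are close copies of each other, and reads that fit several of them could have been split or dropped in counting, so these values are uncertain. IFITM1 passed with upper-quartile factors (1.31, adjusted p = 0.0490), library totals (1.44, adjusted p = 0.0342) and DESeq2 (1.20, adjusted p = 0.0465), and without DMSO replicate 2 (1.86, adjusted p = 0.0338). It was at 0.77 (adjusted p = 0.329) without DMSO replicate 1, 0.86 (adjusted p = 0.224) without RB-1 replicate 2 and 0.70 (adjusted p = 0.284) with the length and GC correction. IFITM3 passed without DMSO replicate 1 (-1.05, adjusted p = 0.0346). Leaving out DMSO replicate 2 (1.76, adjusted p = 0.0848) or RB-1 replicate 1 (1.73, adjusted p = 0.0906) ended the BST2 call.

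Within the ISG15 system the ligase genes fell and the modifier itself did not pass. ISG15 is a ubiquitin-like protein that is joined to other proteins, in human cells mainly by the ligase HERC5. ISG15 had 52.2 and 51.4 CPM in DMSO and 94.7 and 50.9 CPM in RB-1. The DMSO libraries were level, RB-1 replicate 2 was level with them and RB-1 replicate 1 stood alone above (0.49 ± 0.32, adjusted p = 0.262); without RB-1 replicate 2 it passed (0.87, adjusted p = 0.0354). Without RB-1 replicate 1 it was at -0.02, and with the length and GC correction at -0.21, neither of which passed. HERC5 had 51.0 and 35.5 CPM in DMSO and 12.2 and 16.4 CPM in RB-1, 3.03-fold lower (-1.60 ± 0.32, adjusted p = 0.00540). HERC6, its relative and neighbour, had 19.8 and 22.8 CPM in DMSO and 8.0 and 7.96 CPM in RB-1, 2.67-fold lower (-1.42 ± 0.30, adjusted p = 0.00713). USP18, which removes ISG15 and damps the receptor, was low throughout, with 41 to 74 counts per library (-0.63 ± 0.42, adjusted p = 0.285), and its counts are uncertain because near-identical copies of the gene exist. HERC5 missed the threshold without DMSO replicate 1 (-1.32, adjusted p = 0.0522) and HERC6 without DMSO replicate 2 (-1.29, adjusted p = 0.0634).

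The neighbouring genes SAMD9 and SAMD9L, which restrict poxviruses and slow cell growth, had the largest falls of the set. SAMD9 had 62.7 and 54.3 CPM in DMSO and 5.67 and 8.44 CPM in RB-1, 8.29-fold lower (-3.05 ± 0.32, adjusted p = 0.000340). SAMD9L had 21.6 and 19.0 CPM in DMSO and 1.83 and 2.0 CPM in RB-1, 10.6-fold lower (-3.40 ± 0.34, adjusted p = 0.000253). The groups stood far apart for both genes compared with the gaps between replicates. With a correction for transcript length and GC content that removes each library's trend, the changes were -2.40 (adjusted p = 0.00110) and -2.63 (adjusted p = 0.00152).

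All 3 genes around ADP-ribosylation fell, beside 16.1% of all genes tested. Of all genes with transcripts over 5181 bases, as these 3 have, 31.5% fell. PARP14 attaches single ADP-ribose units, and PARP9 works in a pair with the ubiquitin ligase DTX3L. PARP14 had 96.3 and 81.0 CPM in DMSO and 16.3 and 32.6 CPM in RB-1, 3.63-fold lower (-1.86 ± 0.35, adjusted p = 0.00466). PARP9 had 26.6 and 30.0 CPM in DMSO and 13.1 and 16.3 CPM in RB-1, 1.93-fold lower (-0.95 ± 0.29, adjusted p = 0.0338). DTX3L had 67.6 and 73.7 CPM in DMSO and 35.5 and 46.1 CPM in RB-1, 1.73-fold lower (-0.79 ± 0.27, adjusted p = 0.0489). The pair that shares a start region thus moved by similar amounts. Both were lost when either DMSO library or the first RB-1 library was left out (PARP9 -1.03, -0.83 and -0.80, adjusted p = 0.119, 0.225 and 0.117; DTX3L -0.85, -0.71 and -0.61, adjusted p = 0.156, 0.272 and 0.164), with upper-quartile factors (adjusted p = 0.0528 and 0.0808) and with library totals alone (0.112 and 0.166). DTX3L also missed with no count filter (adjusted p = 0.0590), edgeR's legacy fit (0.0510) and the replicate block (0.0565). With the length and GC correction PARP9 was at -0.30 (adjusted p = 0.318), DTX3L at -0.27 (adjusted p = 0.314) and PARP14 at -1.19 (adjusted p = 0.00934).

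The IFI genes, named only for their induction by interferon, went both ways. IFI27, a small membrane protein, had 11 and 9 counts in DMSO against 69 and 40 in RB-1. That is 0.315 and 0.275 CPM against 1.83 and 1.07 CPM, a 4.86-fold rise (2.28 ± 0.55, adjusted p = 0.0130). Its DMSO libraries alone would not have passed the filter on low counts, so the call depends on the group where IFI27 was high. With a filter of at least 50 counts in 2 libraries IFI27 was not tested. IFI44L had 2.35 and 1.65 CPM in DMSO and 0.265 and 0.908 CPM in RB-1, 3.40-fold lower (-1.77 ± 0.56, adjusted p = 0.0391). With 10 and 34 counts, its RB-1 libraries alone would not have passed the filter on low counts. The IFI44L call thus depends on the group where IFI44L was high. Its neighbour IFI44 had 50.5 and 40.4 CPM in DMSO and 21.4 and 29.5 CPM in RB-1 and did not pass (-0.83 ± 0.30, adjusted p = 0.0557). Leaving out RB-1 replicate 2 (-1.08, adjusted p = 0.0355) or using DESeq2 (-0.84, adjusted p = 0.0264) brought IFI44 past the threshold. XAF1, which favours cell death, had 2.06 and 2.93 CPM in DMSO and 0.318 and 0.881 CPM in RB-1, 4.14-fold lower (-2.05 ± 0.52, adjusted p = 0.0161). A gene on the opposite strand, with no row of its own in the count table, covers 69.9% of its exon bases. Whether strand was used in counting is not stated by the labels, which leaves the XAF1 values uncertain. IFI35 (0.71, adjusted p = 0.121) and IFI6 (0.61, adjusted p = 0.481) did not pass; RB-1 replicate 1 was at 28.4 and 9.70 CPM for them and RB-1 replicate 2 at 18.6 and 3.13 CPM. IFI35 was at 0.99 (adjusted p = 0.0499) without RB-1 replicate 2 and at 0.12 with the length and GC correction. IFI6 turned to -0.43 without RB-1 replicate 1 and -0.08 with that correction, and leaving out DMSO replicate 2 or RB-1 replicate 2 gave 1.38 and 1.21, none of which passed.

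The scarce IFI genes lost their calls when some libraries were left out. IFI27 was at 2.21 (adjusted p = 0.0591) when DMSO replicate 2 was left out and at 1.85 (adjusted p = 0.118) when RB-1 replicate 1 was. IFI44L was at -1.49 (adjusted p = 0.135) with DMSO replicate 1 removed, -1.13 (adjusted p = 0.189) with RB-1 replicate 1 removed and -2.90 with RB-1 replicate 2 removed, and missed the threshold with DESeq2 (adjusted p = 0.0597), upper-quartile factors (0.0548) or library totals alone (0.0751). XAF1 was at -1.76 (adjusted p = 0.0714) without DMSO replicate 2, -1.50 (adjusted p = 0.101) without RB-1 replicate 1 and -2.96 without RB-1 replicate 2.

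Of the 41 members, 4 were at or near the limit of detection. CXCL10, which draws T cells through the receptor CXCR3, had 0 counts in all 4 libraries, which allows up to 3 counts or 0.0795 to 0.0916 CPM in each, covering counting error only. CMPK2, a mitochondrial nucleotide kinase, likewise had 0 counts. CXCL11 had 4 and 16 counts in DMSO and 4 and 0 in RB-1, and RSAD2, or viperin, 11 and 6 in DMSO and 5 and 3 in RB-1. These 4 genes are the members left out of the test. ISG20, an exonuclease, was at 6.91 and 7.45 CPM in DMSO and 9.38 and 9.21 CPM in RB-1 (0.37 ± 0.31, adjusted p = 0.386), and at -0.05 with the length and GC correction.

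On a scale per transcript length (CPM per kilobase of the longest transcript), the members spanned a wide range of levels in DMSO. IFITM3 was highest with 275.8, followed by ISG15 with 65.8, IFIT3 with 62.3, IFITM2 with 60.4 and IFIT2 with 34.4. ISG15, IFIT3 and IFITM2 do not differ in this order beyond the gaps between replicates. In RB-1 the order was IFITM3 with 172, ISG15 with 92.5, IFITM2 with 45.3 and MAVS with 34.7, and IFIT3 stood at 13.8 and IFIT2 at 13.2. BST2 and IFI27 reached 1.70 and 2.0 in RB-1, from 0.433 and 0.407 in DMSO.

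**Figure D3:**
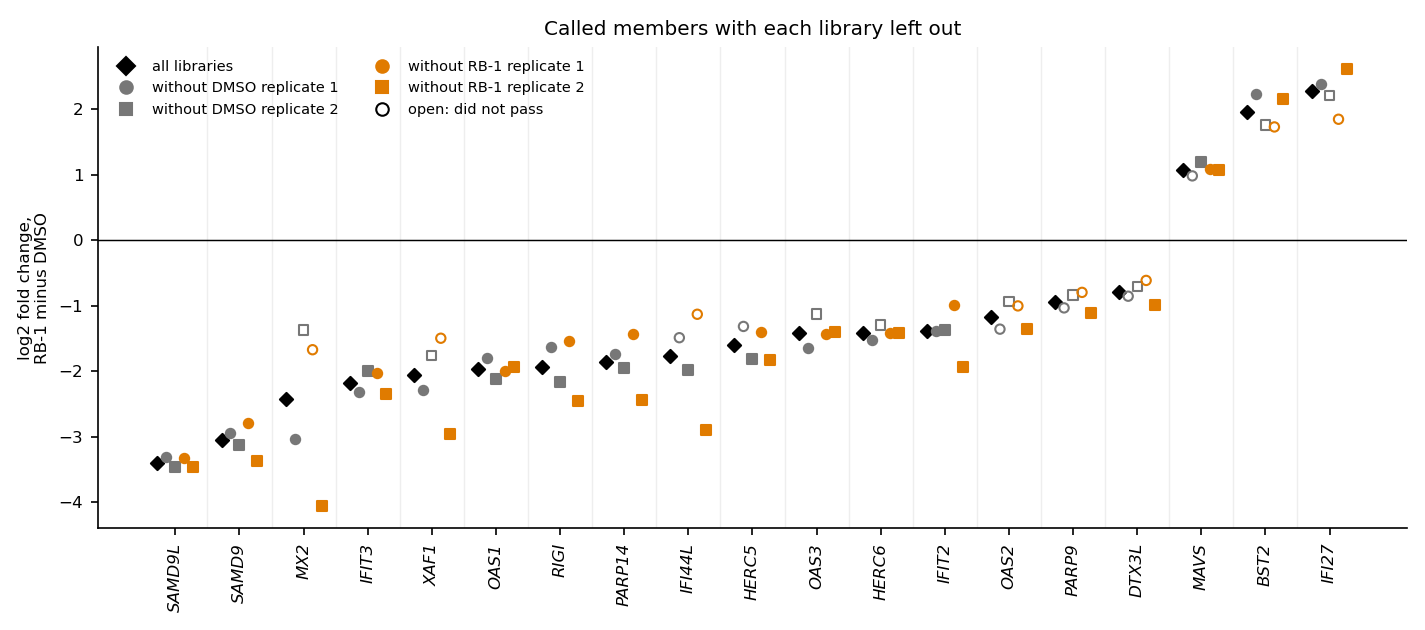
Log2 fold change of the 19 members that passed, with all libraries (black diamonds) and with each library left out (grey and orange symbols), filled where the adjusted p stayed under 0.05. SAMD9L, SAMD9, IFIT3, OAS1, RIGI, PARP14 and IFIT2 are filled throughout, while BST2 and IFI27 turn open without DMSO replicate 2 or RB-1 replicate 1 and MAVS without DMSO replicate 1.

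Of the 19 calls, 7 passed in the same direction under every one of the 15 alternatives other than the stricter threshold: RIGI, IFIT2, IFIT3, OAS1, SAMD9, SAMD9L and PARP14, all of them lower. None of the 3 rises passed with every library left out in turn. At an adjusted p under 0.01, 9 members were lower and 1, MAVS, was higher, against 7.84% and 3.77% of all genes.

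The size of the change went with the length and the base composition of the transcript, both among the members and in the whole table. Over the 37 tested members the Spearman correlation of the log2 fold change was -0.57 with transcript length and 0.70 with GC content; over 13596 genes it was -0.38 and 0.30. Genes are not independent replicates, and length and GC content are themselves related. Of the 19 tested members with under 50% GC, 15 fell, and of the 18 at or above 50%, 1 fell (OAS3, 54.3%). Over all genes 29% and 20.7% fell in the 2 quartiles of lowest GC content (up to 48.9%) and 9.33% and 5.35% in the 2 above. In the longest quartile of all genes, over 5181 bases, 7 of 8 members fell against 31.5% of all genes there, and MAVS (11714 bases, 52.1% GC) rose. In the shortest quartile, up to 2140 bases, 2 of 13 members rose against 23.5% of all genes there and the members' median was 0.37 against 0.47. The 3 members that rose had 52.1 to 58.2% GC, and SAMD9 and SAMD9L had 36.0% and 38.5%.

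Length and GC content also separated the 2 RB-1 libraries from each other. The log2 difference of RB-1 replicate 2 minus replicate 1 had a Spearman correlation of 0.51 with length and -0.74 with GC content over the 37 members (0.44 and -0.51 over all genes), and for the DMSO libraries the values were -0.33 and 0.50 (-0.11 and 0.31). RB-1 replicate 1 lay below replicate 2 in 13 of the 16 members that fell, by over 1.5 times in 6 of them. This was not counted over all genes, and 15 of the 16 have under 50% GC, so it is not read as a trait of these members. The part of length, GC content or RNA quality in the falls was not tested beyond a fit that removes each library's smooth trend on length and GC content. That fit would also remove any effect of RB-1 that itself follows these properties. It called 16 members lower, 12 of them among the 16 above, and the same 3 higher, beside 15.8% lower and 16.7% higher of all genes. PARP9, DTX3L, IFI44L (-1.20, adjusted p = 0.0821) and MX2 (-2.50, adjusted p = 0.0583) dropped out, and IFI44 (-0.82, adjusted p = 0.0186), IRF9 (-1.21, adjusted p = 0.0316), IFITM2 (-0.99, adjusted p = 0.0193) and IFITM3 (-1.25, adjusted p = 0.0289) came in. IFIT3 (-2.11), OAS1 (-2.13) and RIGI (-1.46) moved by less than 1.5 times in fold, while MAVS was at 1.67, BST2 was at 1.35 (adjusted p = 0.0464) and IFI27 at 1.64 (adjusted p = 0.0332).

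**Figure D4:**
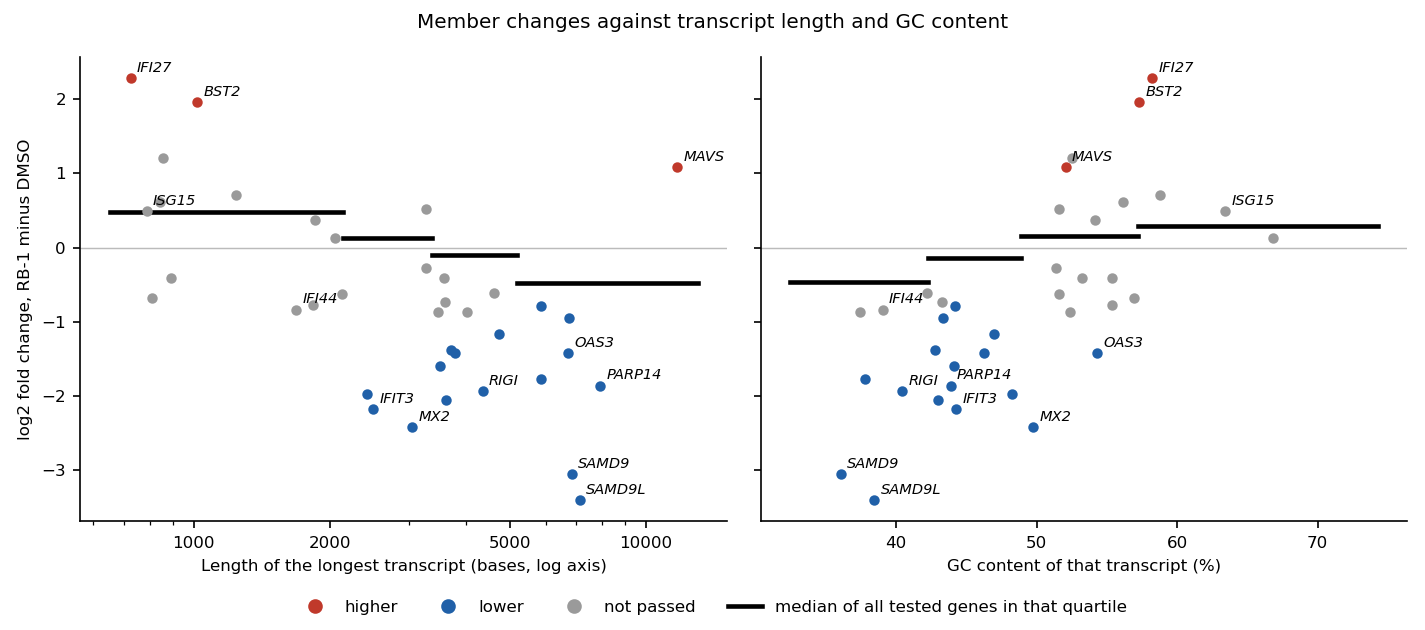
Log2 fold change of the 37 tested members against the length (log axis) and the GC content of their longest transcript, with black bars for the median of all tested genes in each quartile. Members over 5181 bases lie below 0 apart from MAVS, and the members that fell lie under 50% GC apart from OAS3.

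Other genes of the pathway were grouped by role. Of 77 genes, 67 were tested; 17 fell, 4 rose and 46 did not pass, with a median log2 fold change of -0.19. That is 25.4% lower and 5.97% higher, beside 16.1% and 12.8% of all genes. All 9 interferon genes looked at (IFNB1, IFNA1, IFNA2, IFNE, IFNK, IFNL1, IFNL2, IFNL3 and IFNG) had 0 counts in all 4 libraries. Up to 3 counts per library are allowed by such zeros, so transcripts of these 9 genes were not detectable at this depth in either group.

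Of the 10 genes of receptors and the signalling next to them, 2 rose and 8 did not pass. IFNGR2, a chain of the interferon-gamma receptor, had 40.3 and 42.2 CPM in DMSO and 73.6 and 71.0 CPM in RB-1 (0.81 ± 0.26, adjusted p = 0.0374). IFNAR2, the signalling chain of the type I receptor, had 13.7 and 11.02 CPM in DMSO and 25.7 and 20.1 CPM in RB-1 (0.89 ± 0.30, adjusted p = 0.0494), but other gene models cover 46.8% of its exon bases on the same strand and 41.4% on the opposite one. IFNGR1, the binding chain for interferon-gamma, was at 0.83 ± 0.30 (adjusted p = 0.0565). Both rises were lost without DMSO replicate 1 (IFNGR2 0.77, adjusted p = 0.202; IFNAR2 1.05, adjusted p = 0.144), DMSO replicate 2 (0.87, adjusted p = 0.177; 0.76, adjusted p = 0.300) or RB-1 replicate 1 (0.79, adjusted p = 0.0818; 0.71, adjusted p = 0.158) and with the replicate block (adjusted p = 0.0532 and 0.0623), and IFNGR2 with the length and GC correction (0.46, adjusted p = 0.0948); IFNAR2 also missed with no count filter (adjusted p = 0.0590) and limma-voom (0.0577). IFNGR1 passed with upper-quartile factors (adjusted p = 0.0352), DESeq2 (0.0303) and the length and GC correction (1.05, adjusted p = 0.00803).

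Among inhibitors of interferon signalling 3 of 6 fell (50%, beside 16.1% of all genes tested) and 3 did not pass. TRIM24, a repressor of interferon signalling, had 42.0 and 62.1 CPM in DMSO and 8.61 and 12.1 CPM in RB-1 (-2.33 ± 0.33, adjusted p = 0.00111). PIAS1, which restrains STAT proteins, had 55.6 and 64.6 CPM in DMSO and 10.9 and 16.6 CPM in RB-1 (-2.13 ± 0.31, adjusted p = 0.00136), with 35.4% of its exon bases under genes of the opposite strand. PTPN2, a phosphatase of JAK kinases, fell by 1.09 ± 0.29 on the log2 scale (adjusted p = 0.0186). TRIM24 and PIAS1 have long transcripts and were at -1.55 and -1.34 with the length and GC correction, and PTPN2 lost its call when DMSO replicate 1 (-1.0, adjusted p = 0.132), DMSO replicate 2 (-1.16, adjusted p = 0.0882) or RB-1 replicate 1 (-0.98, adjusted p = 0.0693) was left out and with library totals alone (-0.90, adjusted p = 0.0683).

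Among 17 tested genes of nucleic acid sensing 4 were lower (23.5%), 2 higher (11.8%, near the 12.8% of all genes) and 11 did not pass. TLR3, the sensor of double-stranded RNA in endosomes, had 11.5 and 9.31 CPM in DMSO and 1.25 and 1.42 CPM in RB-1, 7.79-fold lower (-2.96 ± 0.36, adjusted p = 0.000574). IFI16, a sensor of DNA in the nucleus and cytosol, had 144 and 157 CPM in DMSO and 25.8 and 39.2 CPM in RB-1, 4.64-fold lower (-2.21 ± 0.28, adjusted p = 0.000736). TBK1, the kinase below MAVS, was 3.04-fold lower (-1.60 ± 0.32, adjusted p = 0.00594). The fourth was PNPT1 (-1.40, adjusted p = 0.00863), which degrades RNA in mitochondria, and the 2 that rose were RNF135 (1.35, adjusted p = 0.0118), a ubiquitin ligase that activates RIGI, and DHX58 (1.34, adjusted p = 0.0142), the third helicase of the RIGI family; these 3 were picked out after their values had been seen. TLR3 was at -2.31 with the length and GC correction. Leaving out DMSO replicate 1 ended the calls of TBK1 (-1.32, adjusted p = 0.0560) and PNPT1 (-1.21, adjusted p = 0.0727), and DHX58 and RNF135 were each lost without DMSO replicate 2 (1.40, adjusted p = 0.0770; 1.24, adjusted p = 0.103) or RB-1 replicate 1 (1.17, adjusted p = 0.0690; 1.01, adjusted p = 0.0618), DHX58 also without DMSO replicate 1 (1.30, adjusted p = 0.0959).

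In the list of 34 further interferon-stimulated effectors 10 fell and 24 did not pass. GBP3 and GBP1, GTPases that attack the membranes of intracellular microbes, were 4.31-fold (-2.11 ± 0.31, adjusted p = 0.00137) and 4.03-fold lower (-2.01 ± 0.31, adjusted p = 0.00181). DDX60L, a helicase-like antiviral protein, had 24.1 and 21.7 CPM in DMSO and 4.82 and 6.84 CPM in RB-1 (-1.97 ± 0.32, adjusted p = 0.00228), and was at -1.26 with the length and GC correction. That is 29.4% of them, beside 16.1% of all genes tested.

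**Figure D5:**
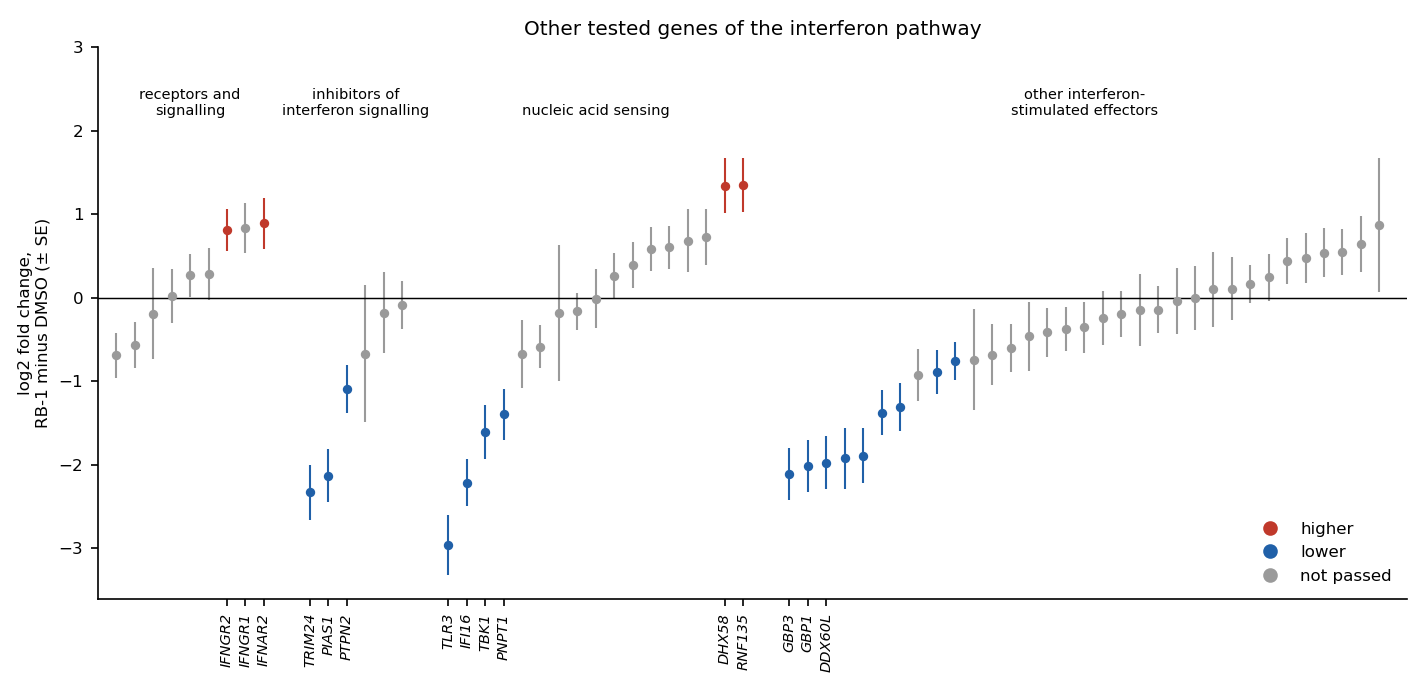
Log2 fold change (RB-1 minus DMSO) with its standard error for 65 of the 67 tested genes of the wider pathway, sorted within 4 groups by role and coloured by the call, with names for the genes described in the text. TLR3 has the lowest value (-2.96) and RNF135 the highest that passed (1.35), and the inhibitors and further effectors hold no rise that passed.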

How the data were processed

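RNA of MDA-MB-231 cells was sequenced in 2 DMSO and 2 RB-1 libraries. The authors deposited raw counts per gene, not normalised, 1 column per library. The sources used here name no aligner or counter and no use of strand. The submitters' processing notes name only mouse builds while every ID is human, so gene coordinates are not printed; promoter stretches carry RefSeq's own GRCh38.p14 positions. Symbols matched 20148 of 20263 IDs, and lengths and GC content come from the longest coding transcript of GENCODE's basic set. Genes were kept by filterByExpr (13612) and compared with edgeR 4.0.16 (R 4.3.3; TMM, estimateDisp, robust glmQLFit, glmQLFTest), two-sided, with Benjamini-Hochberg adjustment over all of them and a threshold of 0.05. The standard error is the log2 fold change divided by the square root of F. On simulated counts (13612 genes, 200 changed) 20.4% of 2-fold and 83.8% of 4-fold changes were recovered, with 7.11% of calls false. The data gave calls for 28.8% of genes, a far larger share than was changed in the simulation. These rates therefore need not hold for the data, and a gene that did not pass may still have changed. Members and lists were chosen with earlier results of these data known. Every member may be named; of the wider lists, the 3 genes with the smallest p each. Some genes are not reported here. Alternatives used DESeq2 1.42.0, limma-voom 3.58.1, other scalings, filters and thresholds, a replicate block, a length and GC correction, and each library left out.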

Additional observations from a re-analysis of the deposited data

How the results depend on the processing

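No member changed sign with a call under any alternative. At an adjusted p under 0.01 in edgeR's quasi-likelihood test, 1 member was higher and 9 were lower, beside 3.77% and 7.84% of all genes. Of the wider pathway 0 genes were then higher and 13 lower. At the usual threshold of 0.05, 4 pathway genes were higher and 17 lower with edgeR, 5 and 18 with DESeq2 and 3 and 18 with limma-voom. By edgeR's test 6 pathway genes were higher at an unadjusted p under 0.05. With each library left out in turn, the members' median log2 fold change ran from -0.99 to -0.74. The Spearman correlation of the members' changes with length then ran from -0.62 to -0.45. The deviations of same-numbered libraries had a correlation of -0.096 over 13612 genes, on levels not corrected for length and GC content. The differences of replicate 2 minus replicate 1 followed GC content in opposite directions in the 2 groups (0.31 in DMSO, -0.51 in RB-1). That correlation cannot tell whether same-numbered libraries were handled together, which was not tested. The replicate block gave 4 members higher and 15 lower and 2 pathway genes higher and 18 lower, beside 12.8% higher and 17% lower of all genes. With the length and GC correction added it gave 2 and 17, and 7 and 16, beside 17.5% and 16.4% of all genes. BST2 was then at 1.36 (adjusted p = 0.0628). Over the alternatives, 57 of 302 values of the 19 called members (18.9%) lost the call, and 20 of 288 values of the other tested members (6.94%) gained one. Among the alternatives is the stricter threshold, under which a called member could only lose its call and no other member could gain one. Depth limits the scarce members (BST2, IFI27, IFI44L, MX2 and the 4 untested ones).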
